A study of Mus musculus with 6 samples.

Results

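Imprinted genes are transcribed from 1 parental copy, and their RNA was followed here in 3 mouse melanoma lines. The 38 genes were taken by symbol from a list of imprinted genes in 17 clusters, chosen with earlier results of these data known. All 38 were rows of the expression table, which holds 23951 genes. The list counts 15 genes that are expressed from the maternal copy and 23 that are expressed from the paternal copy in the mouse. RNA sequencing covered 2 libraries each of B16-F1, a melanoma line that seldom forms metastases, of B16-F1R2, which was grown out of a lymph node metastasis, and of B16-F1R2L, which was grown out of a lung metastasis that itself came from a lymph node metastasis. All cells were untreated and kept in the same medium. B16-F1 came from a repository and both variants from another laboratory, so the line and its source cannot be told apart. Nothing in the sources used here says whether the 2 libraries of a line were separate cultures, and p-values measure only the spread between these libraries, which may be technical. Each variant is 1 line.

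Genomic imprinting marks one parental copy of a gene with DNA methylation in the egg or the sperm, and the mark is kept through the early embryo while most other methylation is erased. Many imprinted genes lie in clusters around an imprinting control region, where a non-coding RNA made from one parental chromosome can hold neighbouring genes silent on that chromosome. Several of the genes govern growth of the fetus and placenta, with paternally expressed growth promoters such as Igf2 and maternally expressed restrainers such as Cdkn1c, Phlda2 and Grb10. For some genes imprinting is limited to certain tissues, such as Ube3a in neurons. B16 arose in an inbred mouse strain, so both parental copies carry the same sequence, and the table gives 1 value per gene. The maternal and paternal labels are therefore background on the genes, and no measurement here tells which copy was transcribed.

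Values are FPKM, fragments per kilobase of transcript per 1000000 mapped fragments, so that levels can be set side by side between genes. The 6 libraries were estimated to hold 11900000 to 14700000 reads from the FPKM that a single read gave in genes with 1 transcript. Their FPKM summed to between 596657 and 672794, and 10617 to 11168 genes reached 1 FPKM. The summed FPKM of 7 melanocyte markers was 15000 for both B16-F1 libraries, 7910 to 8120 for B16-F1R2 and 8920 to 8930 for B16-F1R2L, so markers of the labelled cell type were present in all 6. Of 7 fibroblast markers the sum was 1.14 to 1.33 for B16-F1, 22.3 to 23.1 for B16-F1R2 and 9.83 to 10.9 for B16-F1R2L. Col1a1 and Pdgfrb carried most of it in both variants and Col1a2 most of it in B16-F1. Dcn and Lum, from the same list, were at 0 in every library. Leukocyte markers summed to 1.19 to 4.18, with Ptprc, Cd3e and Itgam at 0 in every library, endothelial markers to 1.55 to 2.38, with Cdh5, Kdr, Tek and Lyve1 at 0, and epithelial markers to 0.383 to 0.662. Lyz2, a lysozyme gene of myeloid cells, had 0.17 and 0.625 FPKM for B16-F1, 0.916 and 1.17 FPKM for B16-F1R2 and 2.05 and 1.5 FPKM for B16-F1R2L, and Pecam1, an adhesion gene of endothelium, was at 0 in both B16-F1 libraries and between 0.752 and 1.26 FPKM in the variants. Prox1, another endothelial marker, was lower in both variants. It had 1.66 and 1.63 FPKM for B16-F1, 0.79 and 0.969 FPKM for B16-F1R2 and 1.16 and 1.12 FPKM for B16-F1R2L. Cd68, another leukocyte marker, lay between 0.983 and 2.67 FPKM, and the lines overlapped. The part of these markers in the results on the imprinted genes was not tested. In bulk RNA, fewer cells with a transcript and less RNA per cell cannot be told apart.

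Promoter sequence was at hand for 32 of the 38 genes, as 48 windows of the 250 bases before a start site in RefSeq (GRCm38.p6). The windows were searched on both strands for TGCCGC, the hexamer read by ZFP57, the zinc finger protein that protects methylated imprinting control regions, which appears as GCGGCA when it lies on the other strand. The hexamer was found in 7 of the 48 windows (14.6%), belonging to Mest, Copg2, Mcts2, Plagl1, Zim1 and Meg3, against 8.68% of all 32851 windows. Mest alone held 2 copies in 1 window, a property of 0.874% of all windows. Of the 7 windows, 2 are windows of Mest that start 3 bases apart and hold the same copies, and a further Mest window held none. The 7 windows had 10 to 20 CpG sites, against a median of 6 over all windows. The hexamer contains a CpG, and the shares were not matched for CpG content. The windows below are shown because Mest and Copg2 are neighbours whose RNA went opposite ways, because Phlda2 was among the genes that moved most, and because Mcts2 and Plagl1 are the other transcribed genes with the hexamer. The hexamer is in capitals, and the sequences run 5′ to 3′ on the strand of the gene. The Mest window is chr6:30737800-30738049 on the plus strand, with 14 CpG sites against a median of 6 over all windows.
Mest: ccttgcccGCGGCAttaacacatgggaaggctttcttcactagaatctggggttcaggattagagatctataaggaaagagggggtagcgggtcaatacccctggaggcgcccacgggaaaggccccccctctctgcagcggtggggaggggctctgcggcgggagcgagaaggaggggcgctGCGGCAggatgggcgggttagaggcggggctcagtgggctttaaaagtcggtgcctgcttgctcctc
The Copg2 window is chr6:30896795-30897044 on the minus strand, with 19 CpG sites.
Copg2: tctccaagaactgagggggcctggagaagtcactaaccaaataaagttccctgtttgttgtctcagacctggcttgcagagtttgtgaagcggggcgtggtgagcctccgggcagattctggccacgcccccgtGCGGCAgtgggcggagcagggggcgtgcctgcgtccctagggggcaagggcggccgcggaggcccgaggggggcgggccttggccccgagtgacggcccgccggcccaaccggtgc
The Mcts2 window is chr2:152686898-152687147 on the plus strand, with 20 CpG sites.
Mcts2: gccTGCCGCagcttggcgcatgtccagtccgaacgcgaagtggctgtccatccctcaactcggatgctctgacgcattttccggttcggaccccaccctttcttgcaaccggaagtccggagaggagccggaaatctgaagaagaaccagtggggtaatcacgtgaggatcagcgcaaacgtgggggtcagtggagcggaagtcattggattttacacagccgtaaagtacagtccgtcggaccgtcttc
The Plagl1 window is chr10:13090582-13090831 on the plus strand, with 19 CpG sites.
Plagl1: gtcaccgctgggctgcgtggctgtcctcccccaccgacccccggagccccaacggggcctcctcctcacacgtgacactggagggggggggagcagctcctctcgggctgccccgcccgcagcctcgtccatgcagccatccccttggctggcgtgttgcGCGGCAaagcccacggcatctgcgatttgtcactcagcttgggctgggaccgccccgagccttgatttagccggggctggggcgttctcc
The Phlda2 window is chr7:143502525-143502774 on the minus strand and holds 21 CpG sites and no copy of the hexamer.
Phlda2: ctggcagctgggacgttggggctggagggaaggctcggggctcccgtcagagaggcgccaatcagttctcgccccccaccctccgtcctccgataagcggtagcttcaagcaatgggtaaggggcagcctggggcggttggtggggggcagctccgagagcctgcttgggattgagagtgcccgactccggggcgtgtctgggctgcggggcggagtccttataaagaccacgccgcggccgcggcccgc
A copy of the hexamer describes the sequence of a window, and neither methylation nor binding of a protein was measured in these data. The genes without a window were Impact, Peg10, Cdkn1c, Sgce, Nespas and H19.

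Most of the imprinted genes were not transcribed at a level that could be compared. Of the 38 genes, 16 (42.1%) reached 1 FPKM in at least 2 libraries and were tested, against 47.5% of all genes in the table. The 22 others comprised 11 genes listed at 0 in all 6 libraries (28.9%, against 31.2% of all genes) and 11 with a value above 0 that never passed 1.07 FPKM. The tested genes lay in 10 of the 17 clusters. Among maternally expressed genes 9 of 15 were tested and 1 was at 0 throughout, and among paternally expressed genes 7 of 23 were tested and 10 were at 0 throughout.

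Whole clusters were at or near 0 in all 3 lines. In the Dlk1-Dio3 cluster on chromosome 12, Dlk1, a transmembrane ligand of preadipocytes, and Dio3, the deiodinase that inactivates thyroid hormone, were listed at 0 in every library. The non-coding RNAs of that cluster, Meg3 and Rian, did not pass 0.00529 FPKM and 0.0211 FPKM. In the Peg3 cluster on chromosome 7, the zinc finger genes Peg3 and Zim1 were at 0 and Usp29, a deubiquitinase gene, had 0.00817 FPKM in 1 B16-F1 library only. In the region of chromosome 7 that corresponds to the human Prader-Willi and Angelman region, Ndn, Magel2, Mkrn3, Peg12 and Snrpn were at 0 in all 6 libraries, while Ube3a, the ubiquitin ligase gene of the same region, stood between 10.9 and 13.7 FPKM. The list labels the 5 silent genes as paternally expressed and Ube3a as maternally expressed, but imprinting of Ube3a is limited to neurons. Atp10a and Snurf, from a further list of imprinted genes and neighbours, were also at 0 in all 6 libraries. No link between silence and parental copy was tested. Nespas, the antisense RNA of the Gnas cluster, and Rasgrf1, an exchange factor for Ras, were also at 0 throughout. None of 75 ribosomal protein genes was at 0 in any library, but that check says little about genes of low level. Whether the annotation or the quantification had a part in the zeros was not tested. At the shallowest library, 1 read was worth 0.00967 FPKM for Peg3 and 0.0405 FPKM for Snrpn, so levels below these values were not detectable at this depth.

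The growth factor pair of distal chromosome 7 was close to silence as well. H19, a non-coding RNA, had 0.0283 FPKM in 1 B16-F1R2 library and 0 in the 5 others, and Igf2, the fetal growth factor, had 0.0159 FPKM in the other B16-F1R2 library and 0 elsewhere. These values are near that of a single read, which was 0.0368 FPKM for H19 and 0.0178 FPKM for Igf2. Grb10, an adaptor that restrains insulin and IGF signalling, had 0.0143 FPKM in 1 library, Slc38a4, an amino acid transporter gene, 0.0332 FPKM in 1 library, and Ascl2, a transcription factor of the trophoblast, 0.0725 FPKM in 1 library, all of them B16-F1R2 libraries. Zrsr1, a splicing factor retrogene, ranged from 0 to 0.0452 FPKM over the 6 libraries. None of these 6 genes gave a value that separated the lines.

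Kcnq1ot1 and Nnat lay between silence and the limit for testing. Kcnq1ot1, the long non-coding RNA that silences the Kcnq1 cluster on the paternal chromosome, had 0.132 and 0.153 FPKM for B16-F1, 0.194 and 0.196 FPKM for B16-F1R2 and 0.222 and 0.300 FPKM for B16-F1R2L. The libraries of the 3 lines did not overlap, but the gene stayed below 1 FPKM and was not tested. Nnat, which encodes a small proteolipid of developing neurons and lies within an intron of Blcap, had 0.669 and 0.426 FPKM for B16-F1, 0.482 and 1.07 FPKM for B16-F1R2 and 0.803 and 0.736 FPKM for B16-F1R2L, and the lines overlapped.

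**Figure D1:**
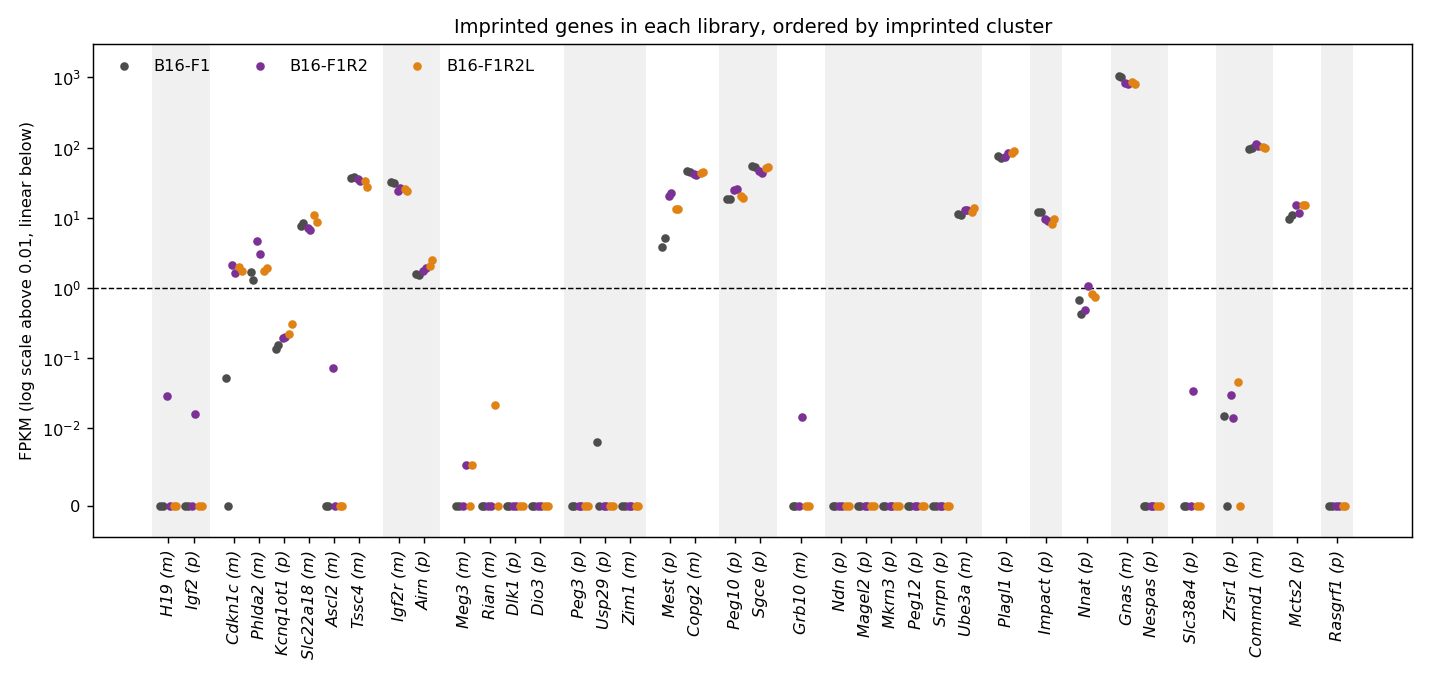
FPKM of the 38 imprinted genes (one column of points per gene, m for maternally and p for paternally expressed, shaded by cluster) in each of the 6 libraries, on an axis that is logarithmic above 0.01 and linear below; the dashed line marks 1 FPKM. The points run from 0 for 11 genes to about 1000 FPKM for Gnas, and the Dlk1-Dio3, Peg3 and Igf2-H19 genes all lie below the line.

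The transcribed genes covered a wide range of levels. Gnas, which encodes the stimulatory G protein alpha subunit, was by far the highest with 802 to 1040 FPKM. Commd1, a gene of protein and copper trafficking, followed with 95.2 to 114 FPKM and Plagl1, a zinc finger transcription factor gene, with 71.8 to 89.9 FPKM. Sgce, Copg2, Tssc4, Igf2r and Peg10 lay between 18.4 and 54.9 FPKM. The lowest of the tested genes were Airn (1.52 to 2.52 FPKM), Phlda2 (1.27 to 4.71 FPKM) and Cdkn1c (0 to 2.11 FPKM). At the estimated depth these values stand for 24.8 to 50.9 reads for Airn, 11.4 to 48.1 for Phlda2 and 0 to 54.9 for Cdkn1c, so their values are less precise than those of the other genes. Only Cdkn1c entered the test through the variants alone, and the 15 other tested genes reached 1 FPKM in every library.

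The first comparison asked how the lymph node line B16-F1R2 differed from B16-F1. Of the 16 tested imprinted genes, 6 were higher in B16-F1R2 (Cdkn1c, Mest, Phlda2, Peg10, Ube3a and Commd1), 5 were lower (Impact, Igf2r, Gnas, Sgce and Copg2) and 5 passed in neither direction (limma, adjusted p under 0.05). Among all 11379 tested genes 28.2% were higher, 27.2% were lower and 55.4% were called in either direction, against 68.8% of the imprinted genes. Cdkn1c, which entered through the variants alone, had to differ from B16-F1, and of the 15 genes that reached 1 FPKM in every library 5 were higher and 5 lower (66.7%). The median change of these 15 genes was 0.07 and the median size of change 0.27 on the log2 scale, against 0.0046 and 0.28 over all tested genes. The latter include genes that only some libraries transcribed. Over the 10193 genes that reached 1 FPKM in every library, as the 15 did, 53.9% were called, the medians were -0.017 and 0.24, and 4.49% were called with a change of 1 or more on the log2 scale, as were Mest and Phlda2. Log2 fold changes are on the scale log2(FPKM + 0.1), which understates the change of low genes.

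Mest, the paternally expressed gene of a hydrolase that is active in the growing embryo, rose most among the listed imprinted genes that every line transcribed. It had 3.85 and 5.12 FPKM for B16-F1, 20.6 and 22.7 FPKM for B16-F1R2 and 13.2 FPKM for both B16-F1R2L libraries. The 3 lines did not overlap, with B16-F1 lowest and B16-F1R2 highest. B16-F1R2 was 4.83-fold above B16-F1, with a log2 fold change of 2.26 (SE 0.131, adjusted p = 3.54e-05). This change was larger than that of 96% of all tested genes. Copg2, the coatomer subunit gene that lies tail to tail with Mest, moved the other way by a small amount. It had 46.4 and 44.9 FPKM for B16-F1, 41.5 and 39.9 FPKM for B16-F1R2 and 42.9 and 44.7 FPKM for B16-F1R2L. B16-F1R2 lay below both other lines, with a log2 fold change of -0.17 against B16-F1 (SE 0.0473, adjusted p = 0.0239). Mest (chr6:30673547-30698457, plus strand, NCBIM37) and Copg2 (chr6:30697554-30846794, minus strand) overlap at their 3′ ends, and 25.6% of the 50-base stretches of Mest transcripts and 20.6% of those of Copg2 occur in both. The library kit keeps strand, but whether the values were computed by strand is not given in the sources used here, so reads of the shared stretch may have been split between them.

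Cdkn1c and Phlda2 are maternally expressed growth restrainers of the Kcnq1 cluster on chromosome 7. Cdkn1c, which encodes the cyclin-dependent kinase inhibitor p57, had 0.0510 and 0 FPKM for B16-F1, 2.11 and 1.62 FPKM for B16-F1R2 and 2.00 and 1.76 FPKM for B16-F1R2L. It was at the level of about 1 read in B16-F1 and was transcribed in both variants, with values that did not overlap those of B16-F1. Because the filter chose the gene by its level in the variants, its test is taken from the fit to all genes of the table, where the log2 fold change was 3.99 (limma, adjusted p = 0.00595), a size that depends on the pseudocount and ranged from 1.48 to 6.23 over the alternatives. Phlda2, whose product limits growth of the placenta, had 1.65 and 1.27 FPKM for B16-F1, 4.71 and 3.03 FPKM for B16-F1R2 and 1.73 and 1.88 FPKM for B16-F1R2L. Only the B16-F1R2 libraries stood above the others, with a log2 fold change of 1.33 (SE 0.23, adjusted p = 0.0033, and 0.0521 in the fit to all genes that gave the test of Cdkn1c), although they differed from each other by more than the libraries of the other lines did. The 2 genes are close neighbours, Cdkn1c at chr7:150644255-150646955 and Phlda2 at chr7:150687450-150688446, both on the minus strand in NCBIM37. Between them lies Slc22a18, a transporter gene at chr7:150659626-150685239, which did not pass the test (log2 fold change -0.22, adjusted p = 0.173). It had 7.54 and 8.38 FPKM for B16-F1 and 7.02 and 6.59 for B16-F1R2. Tssc4, a gene of the assembly of spliceosomal particles at the far side of the cluster, had 36.4 and 37.9 FPKM for B16-F1 and 35.9 and 33.5 for B16-F1R2, and did not pass either (log2 fold change -0.10, adjusted p = 0.371).

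Peg10 and Sgce, which start back to back on chromosome 6, also went opposite ways. Peg10, a gene derived from a retrotransposon that the placenta needs, had 18.7 and 18.4 FPKM for B16-F1, 24.4 and 26.0 FPKM for B16-F1R2 and 20.2 and 19.2 FPKM for B16-F1R2L. It was highest in B16-F1R2, 1.36-fold above B16-F1 with a log2 fold change of 0.44 (SE 0.0558, adjusted p = 9e-04). Sgce, the epsilon-sarcoglycan gene, had 54.9 and 53.3 FPKM for B16-F1, 46.3 and 43.5 FPKM for B16-F1R2 and 51.2 and 52.6 FPKM for B16-F1R2L. It was lowest in B16-F1R2, with a log2 fold change of -0.27 against B16-F1 (SE 0.0485, adjusted p = 0.00385). Both genes are paternally expressed and their starts are neighbours, Sgce at chr6:4624350-4697204 on the minus strand and Peg10 at chr6:4697306-4710514 on the plus strand. Their exons do not overlap and they share no 50-base stretch.

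**Figure D2:**
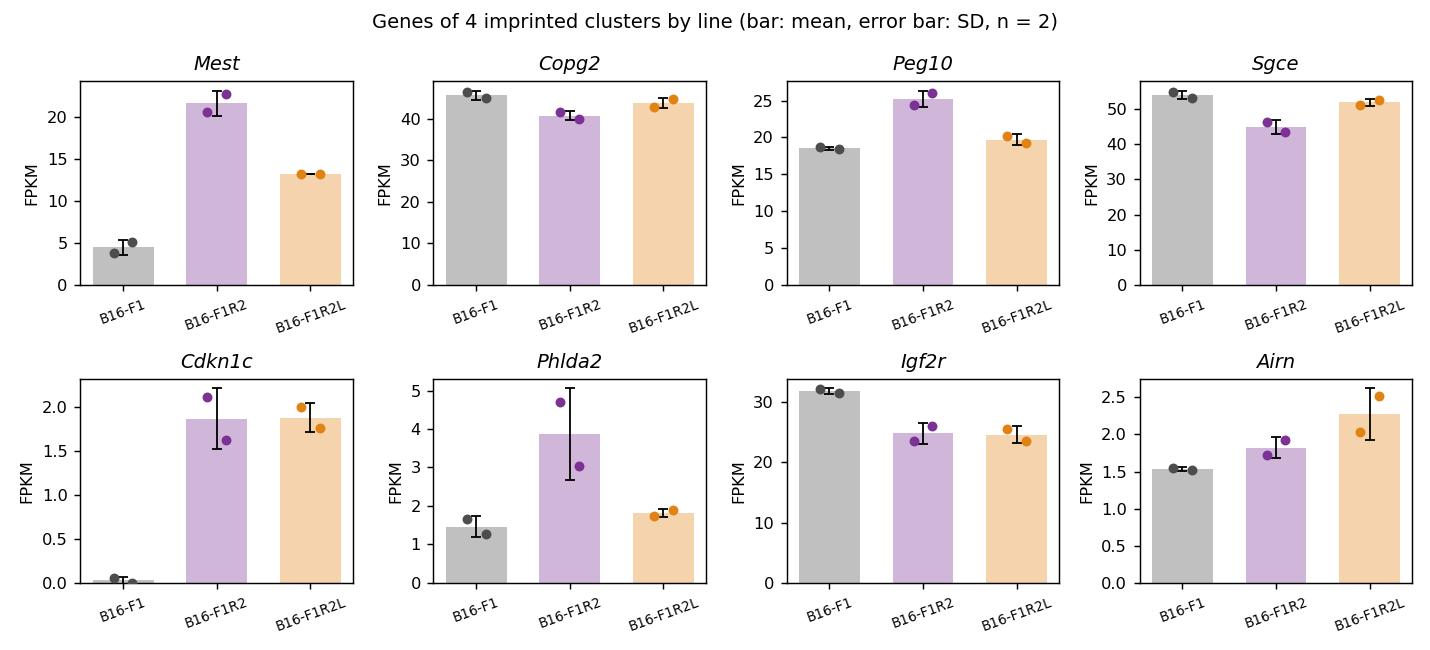
FPKM of 8 imprinted genes of 4 clusters in B16-F1, B16-F1R2 and B16-F1R2L; points are libraries, bars the mean and error bars the SD of 2 libraries, and each panel has its own axis from 0. Mest and Peg10 are highest in B16-F1R2, where their neighbours Copg2 and Sgce are lowest; Cdkn1c is near 0 in B16-F1 and Igf2r is highest there.

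Igf2r and Gnas, genes of a receptor and of a signal transducer, were lower in B16-F1R2. Igf2r, whose product carries IGF2 and mannose 6-phosphate tagged enzymes to the lysosome, had 32.2 and 31.6 FPKM for B16-F1, 23.6 and 26.1 FPKM for B16-F1R2 and 25.6 and 23.6 FPKM for B16-F1R2L. Both B16-F1 libraries lay above all 4 libraries of the variants, and the log2 fold change was -0.36 (SE 0.068, adjusted p = 0.00463). Airn, the paternally expressed antisense RNA that represses Igf2r in the embryo, had 1.55 and 1.52 FPKM for B16-F1 and 1.72 and 1.92 for B16-F1R2. Its difference did not pass the test (log2 fold change 0.23, adjusted p = 0.234). Igf2r (chr17:12875272-12962530, minus strand) and Airn (chr17:12934177-13052988, plus strand) overlap in the genome, but none of their annotated exons do. Gnas had 1040 and 1000 FPKM for B16-F1, 835 and 808 FPKM for B16-F1R2 and 858 and 802 FPKM for B16-F1R2L. The B16-F1 libraries again lay above all others, with a log2 fold change of -0.31 (SE 0.0548, adjusted p = 0.00348). The Gnas locus (chr2:174109821-174172245) has 22 annotated transcripts with different imprinting, which 1 value per gene does not tell apart, and 11.8% of its 50-base stretches also occur in a neighbouring annotated transcript.

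Imprinted genes of other clusters were called in both directions. Impact, a regulator of the translation response to amino acid shortage, had 12.2 and 12.1 FPKM for B16-F1, 9.54 and 9.0 FPKM for B16-F1R2 and 8.23 and 9.71 FPKM for B16-F1R2L, and it fell by 0.39 on the log2 scale in B16-F1R2 (SE 0.0902, adjusted p = 0.0106). Both variants lay below B16-F1 in every library. Ube3a had 11.2 and 10.9 FPKM for B16-F1, 12.8 FPKM for both B16-F1R2 libraries and 12.2 and 13.7 FPKM for B16-F1R2L, a log2 fold change of 0.21 (SE 0.0726, adjusted p = 0.0461). Commd1 had 95.2 and 97.4 FPKM for B16-F1, 114 and 105 FPKM for B16-F1R2 and 101 and 98.3 FPKM for B16-F1R2L, a log2 fold change of 0.18 (SE 0.0516, adjusted p = 0.0246). These changes of Ube3a and Commd1 were below the median size of change over all tested genes, and 32.3% of the 50-base stretches of Commd1 transcripts also occur in B3gnt2 or Zrsr1. Plagl1 and Mcts2 did not pass (log2 fold changes 0.07 and 0.35, adjusted p = 0.437 and 0.0557).

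The calls of Mest, Peg10, Sgce, Igf2r and Gnas held in all 14 alternatives computed for each. Among its alternatives Phlda2 missed the threshold only when all genes of the table were tested, and Impact, Copg2, Ube3a and Commd1 did not pass there either. With 1 library left out, Copg2 passed no longer without B16-F1 replicate 1, B16-F1 replicate 2 or B16-F1R2 replicate 2 (adjusted p = 0.133, 0.0651 and 0.11), nor did Impact (0.0564, 0.0518 and 0.0609). Commd1 passed no longer without B16-F1 replicate 1, B16-F1 replicate 2 or B16-F1R2 replicate 1 (adjusted p = 0.127, 0.0806 and 0.106), and Ube3a without any one library of the 2 lines compared (0.122 to 0.17). Ube3a also passed no longer with libraries rescaled to the same sum (adjusted p = 0.103), and under quantile normalization neither Ube3a (0.0548) nor Copg2 (0.0582) passed.

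The second comparison set the lung line B16-F1R2L against B16-F1. The same 2 B16-F1 libraries served in both comparisons, so agreement between them is not independent. Of the 16 tested imprinted genes, 6 were higher in B16-F1R2L (Cdkn1c, Mest, Mcts2, Airn, Plagl1 and Ube3a), 4 were lower (Impact, Igf2r, Tssc4 and Gnas) and 6 passed in neither direction. Among all tested genes 29.5% were higher, 27.1% were lower and 56.7% were called in either direction, against 62.5% of the imprinted genes. Of the 15 genes without Cdkn1c, 5 were higher and 4 lower (60%). Their median change was 0.09 and the median size 0.30, against 0.017 and 0.28 over all tested genes. Over the 10193 genes that reached 1 FPKM in every library, 54.9% were called, the medians were -0.0083 and 0.25, and 4.72% were called with a change of 1 or more, as was Mest alone among the 15.

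Cdkn1c was 4.01 higher on the log2 scale in B16-F1R2L than in B16-F1 (adjusted p = 0.00594 in the fit to all genes of the table), and the size again depends on the pseudocount. Mest was 2.93-fold above B16-F1, with a log2 fold change of 1.55 (SE 0.131, adjusted p = 1.61e-04). Igf2r fell by 0.38 (adjusted p = 0.00396), Gnas by 0.30 (adjusted p = 0.00429) and Impact by 0.44 on the log2 scale (adjusted p = 0.0064, and 0.0528 when all genes of the table were tested). The genes of the Mest and Peg10 clusters that fell or rose by small amounts in the lymph node line did not pass here. Peg10 differed from B16-F1 by 0.09 (adjusted p = 0.228), Sgce by -0.06 (adjusted p = 0.332) and Copg2 by -0.06 (adjusted p = 0.308). Phlda2 did not pass either (log2 fold change 0.30, adjusted p = 0.306), and its B16-F1R2L libraries lay just above those of B16-F1.

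Several small changes were called in the lung line. Airn had 2.03 and 2.52 FPKM in B16-F1R2L against 1.55 and 1.52 in B16-F1, a log2 fold change of 0.54 (SE 0.152, adjusted p = 0.0233). Its log2 fold change was 0.025 under quantile normalization, so the size of this change in a low gene rests on the scaling. Igf2r was lower and Airn higher in B16-F1R2L, and in both genes the 2 lines did not overlap. Mcts2, a retrogene of the translation factor Mcts1 that sits in an intron of H13, had 15.3 and 14.9 FPKM for B16-F1R2L, 14.9 and 11.6 FPKM for B16-F1R2 and 9.62 and 11 FPKM for B16-F1. Its log2 fold change in B16-F1R2L was 0.55 (SE 0.127, adjusted p = 0.0109). Plagl1 had 83.5 and 89.9 FPKM for B16-F1R2L, 72.5 and 82.7 FPKM for B16-F1R2 and 75.5 and 71.8 FPKM for B16-F1, a log2 fold change of 0.23 for B16-F1R2L (SE 0.0739, adjusted p = 0.034). For both genes B16-F1R2L lay above B16-F1 without overlap. Ube3a had a log2 fold change of 0.23 (adjusted p = 0.0363). Tssc4 had 32.8 and 27.5 FPKM in B16-F1R2L, below both B16-F1 libraries, and fell by 0.31 on the log2 scale (SE 0.0873, adjusted p = 0.0238).

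The 5 small changes last named did not hold when 1 library was left out. None of the 5 passed when all genes of the table were tested, and Tssc4 also passed no longer with libraries rescaled to the same sum. Airn, Plagl1 and Tssc4 passed no longer without B16-F1 replicate 1, B16-F1 replicate 2 or B16-F1R2L replicate 2, with adjusted p from 0.0707 to 0.161, and without B16-F1R2L replicate 2 Tssc4 fell by only 0.18 on the log2 scale. Mcts2 passed no longer without B16-F1 replicate 1 (adjusted p = 0.0686) or B16-F1R2L replicate 1 (0.0532). Among the fits without 1 library, Ube3a passed only in that without B16-F1R2L replicate 1, and its log2 fold change was 0.14 without B16-F1R2L replicate 2.

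**Figure D3:**
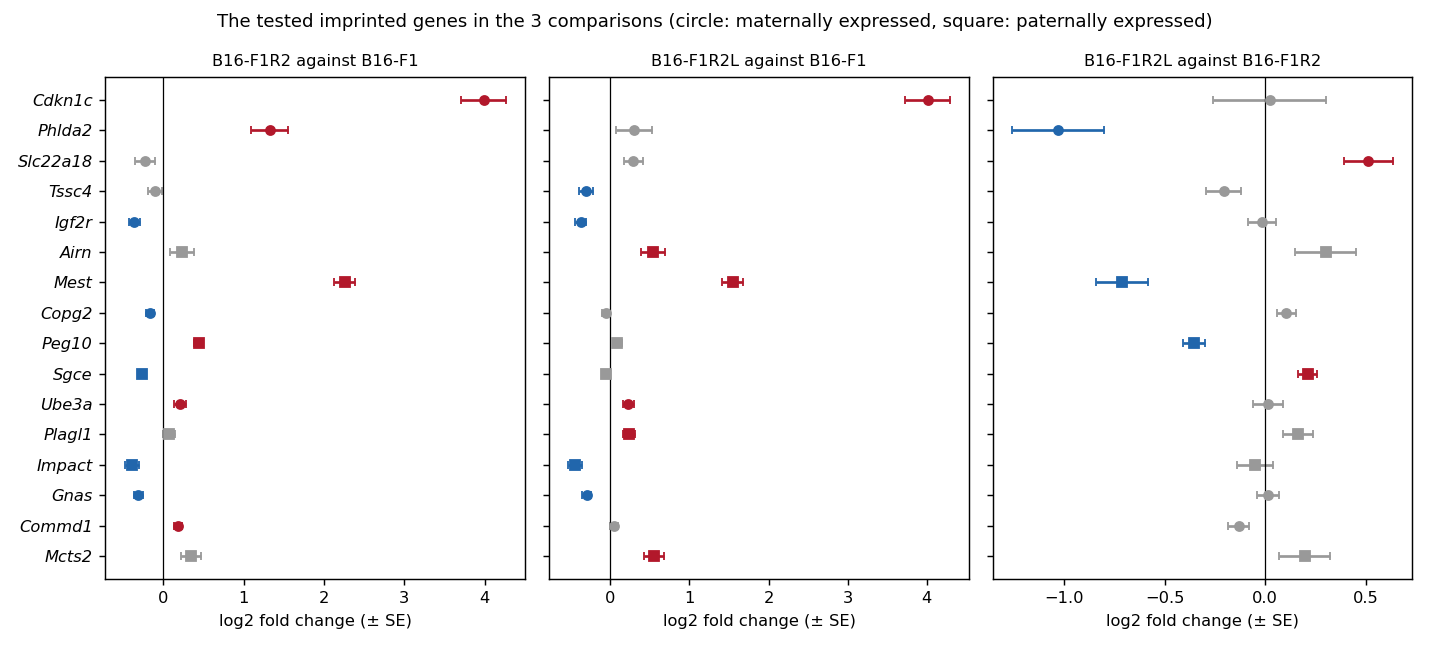
Log2 fold change (± SE of the limma fit over 6 libraries) of the 16 tested imprinted genes in the 3 comparisons; circles are maternally and squares paternally expressed genes, red is called higher, blue called lower and grey not called, and the third panel spans a smaller range. Cdkn1c (3.99 and 4.01) and Mest (2.26 and 1.55) stand far to the right in both comparisons with B16-F1, and Phlda2 (-1.03) and Mest (-0.71) to the left in B16-F1R2L against B16-F1R2.

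The third comparison set the 2 metastatic lines against each other. Of the 16 tested genes, 2 were higher in B16-F1R2L (Slc22a18 and Sgce), 3 were lower (Phlda2, Mest and Peg10) and 11 passed in neither direction. Among all tested genes 12.1% were higher, 10.5% were lower and 22.6% were called in either direction, against 31.2% of the imprinted genes. The median change of the imprinted genes was 0.01 and the median size 0.18, against 0.022 and 0.16 over all tested genes.

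Phlda2 fell by 1.03 on the log2 scale from the lymph node line to the lung line (SE 0.23, adjusted p = 0.0269). Mest fell by 0.71 (SE 0.131, adjusted p = 0.0159), which left it at 0.608 of its B16-F1R2 level. Peg10 fell by 0.35 (SE 0.0558, adjusted p = 0.0109) and Sgce was higher by 0.21 (SE 0.0485, adjusted p = 0.0292). Only 0.554% of all tested genes fell by more than Phlda2, and 1.05% by more than Mest. These 4 genes were picked by their calls between the 2 lines, so the lack of overlap between the lines is no separate result. In these 4 genes B16-F1R2L lay closer to B16-F1 than B16-F1R2 did, which was not so for Slc22a18, also called. Against B16-F1 its log2 fold change was 0.29 in B16-F1R2L and -0.22 in B16-F1R2, and neither passed. Slc22a18 had 11 and 8.65 FPKM in B16-F1R2L against 7.02 and 6.59 in B16-F1R2, a log2 fold change of 0.51 (SE 0.124, adjusted p = 0.0329). Within the Kcnq1 cluster, Phlda2 was thus lower and Slc22a18 higher in the lung line. Cdkn1c, Igf2r, Gnas and Impact, which separated both variants from B16-F1, differed between the variants by 0.02, -0.02, 0.01 and -0.05 on the log2 scale (adjusted p from 0.707 to 0.963).

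The calls of this comparison were the least stable. None of them passed when all genes of the table were tested. Neither Slc22a18 nor Sgce passed in the fit to the 4 libraries of the variants alone. Without 1 library, Phlda2 passed no longer when B16-F1R2 replicate 1, B16-F1R2L replicate 1 or B16-F1R2L replicate 2 was absent (adjusted p = 0.106, 0.0896 and 0.1), Mest when any of the 4 libraries of the variants was absent (0.0557 to 0.0817) and Peg10 when B16-F1R2L replicate 2 was absent (0.0572). Sgce passed in none of the 6 fits without 1 library (0.0567 to 0.112), and Slc22a18 only in that without B16-F1R2L replicate 2.

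**Figure D4:**
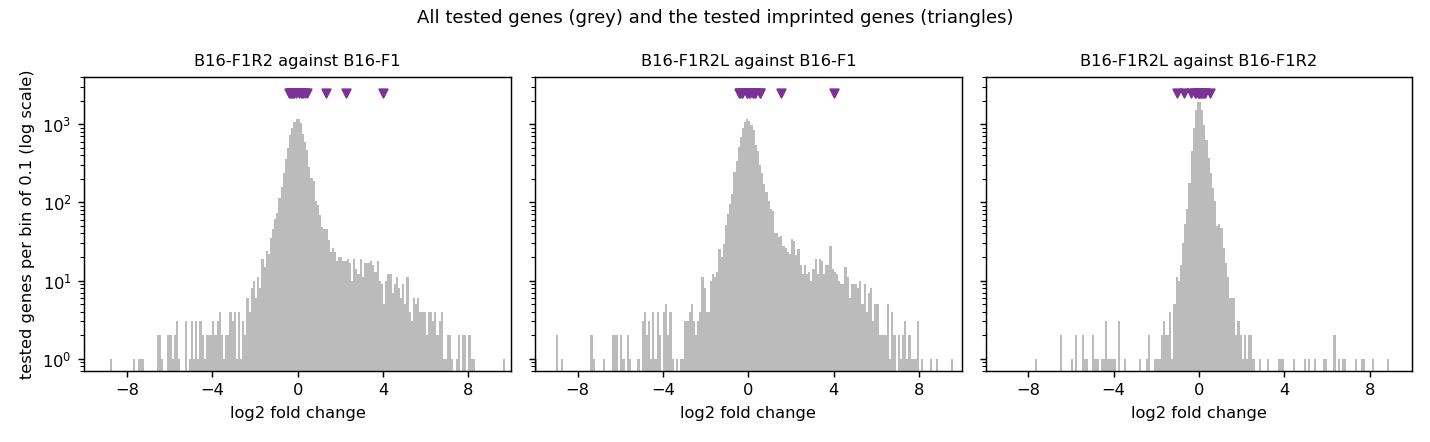
Distribution of log2 fold changes over all 11379 tested genes (grey, bins of 0.1, logarithmic count axis) with the 16 tested imprinted genes as triangles, in the 3 comparisons. Most imprinted genes lie in the central peak, and Cdkn1c, Mest and Phlda2 lie to its right in B16-F1R2 against B16-F1.

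Maternally and paternally expressed genes were called in both directions. Cdkn1c is left out of the counts against B16-F1 below. Over all tested genes the shares called higher and lower were 28.2% and 27.2%, 29.5% and 27.1%, and 12.1% and 10.5% in the 3 comparisons. In B16-F1R2 against B16-F1, 3 of the 8 other tested maternally expressed genes were higher and 3 lower (median log2 fold change -0.13), and 2 of the 7 tested paternally expressed genes were higher and 2 lower (median 0.23). In B16-F1R2L against B16-F1, 1 of the 8 maternally expressed genes was higher and 3 were lower (median -0.006), and 4 of the paternally expressed genes were higher and 1 lower (median 0.23). Between the variants the counts were 1 higher and 1 lower for the maternally expressed genes and 1 higher and 2 lower for the paternally expressed genes. Copg2 and Mest, which share a cluster and have opposite parental expression, were called in opposite directions in B16-F1R2 against B16-F1, and so were Peg10 and Sgce, which are both paternally expressed. Igf2r and Airn had log2 fold changes of -0.36 and 0.23 there, but Airn did not pass and its sign turned under quantile normalization (-0.083).

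A further list of 48 imprinted genes and neighbours of these clusters had 45 genes in the table, of which 18 were tested and 13 were at 0 in all libraries. Of the 18, Ddc and Axl were under 1 FPKM in both B16-F1 libraries and entered through the variants, so they are left out of the counts and their levels are given as a description. In B16-F1R2, 6 of the 16 others were higher and 7 lower than in B16-F1 (81.2%, against 55.4% of all tested genes, median log2 fold change -0.12), in B16-F1R2L 5 were higher and 4 lower (56.2%, against 56.7%, median -0.05), and between the variants 4 were higher and 2 lower in B16-F1R2L (37.5%, against 22.6%, median 0.15). Ddc, the decarboxylase of dopamine and serotonin synthesis next to Grb10, had 0.0859 and 0 FPKM for B16-F1, 7.28 and 8.70 FPKM for B16-F1R2 and 7.48 and 7.34 FPKM for B16-F1R2L, with no overlap between B16-F1 and the variants. Grb10 itself stayed near 0. Axl, a receptor tyrosine kinase gene, had 0.987 and 0.805 FPKM for B16-F1, 5.2 and 5.07 FPKM for B16-F1R2 and 3.45 and 2.87 FPKM for B16-F1R2L, so that like Mest it was highest in the lymph node line. Ampd3, an AMP deaminase gene, rose from 4.04 and 3.99 FPKM (B16-F1) to 8.06 and 9.18 (B16-F1R2) and 9.40 and 10.3 (B16-F1R2L). Pon3, a paraoxonase gene of the Peg10 and Sgce cluster, rose from 6.85 and 6.25 FPKM to 12.2 and 12.4 and to 13.1 and 14.1. The log2 fold changes of Ampd3 were 1.08 and 1.27, and those of Pon3 0.90 and 1.05, all with adjusted p of 1.54e-04 or less.

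Of 24 genes for DNA methylation and imprint maintenance, 20 were tested, Dppa3, which protects maternal methylation in the zygote, was at 0 in all libraries, and Dnmt3l, Ctcfl and Tet1 stayed below 1 FPKM. In B16-F1R2, 5 were higher and 8 lower than in B16-F1 (65%, against 55.4% of all tested genes, median log2 fold change -0.01), in B16-F1R2L 8 were higher and 6 lower (70%, against 56.7%, median 0.002), and between the variants 1 was higher and 2 were lower (15%, against 22.6%, median 0.05). Kdm1b, the histone demethylase that the oocyte needs to set maternal imprints, was the only one to change by more than 1. It had 4.80 and 4.38 FPKM for B16-F1, 35.6 and 41.1 FPKM for B16-F1R2 and 44.0 and 51.6 FPKM for B16-F1R2L, which is 8.37-fold and 10.4-fold above B16-F1 (log2 fold changes 3.04 and 3.35, adjusted p = 4.52e-06 and 2.84e-06). A further 7 genes are described here after their values were seen, because they bear on the hexamer or on DNA methylation. They are not all such genes of the list. Among the others, Tet3 was called lower in B16-F1R2 and Tet2 higher in B16-F1R2L, each against B16-F1. Zfp57 had 2.08 and 2.01 FPKM for B16-F1, 3.38 and 3.93 FPKM for B16-F1R2 and 3.57 and 4.56 FPKM for B16-F1R2L, with log2 fold changes of 0.80 and 0.95 (adjusted p = 0.00409 and 0.00207). Trim28, the corepressor that ZFP57 recruits, fell from 195 and 206 FPKM (B16-F1) to 136 and 139 (B16-F1R2) and 121 and 107 (B16-F1R2L) (log2 fold changes -0.54 and -0.82, adjusted p = 8.51e-04 and 1.47e-04). Dnmt1, the maintenance methyltransferase, lay between 66.9 and 77.0 FPKM in all libraries and did not pass in any comparison (adjusted p = 0.141, 0.193 and 0.864). Uhrf1, whose product brings DNMT1 to newly copied DNA, fell from 150 and 149 FPKM (B16-F1) to 122 and 119 (B16-F1R2) and 116 and 105 (B16-F1R2L) (log2 fold changes -0.31 and -0.44, adjusted p = 0.00366 and 8.33e-04). Dnmt3a, a methyltransferase that sets new methylation, fell from 12.8 and 12.2 FPKM (B16-F1) to 7.45 and 7.54 (B16-F1R2) and 8.06 and 8.51 (B16-F1R2L) (log2 fold changes -0.73 and -0.59, adjusted p = 2e-04 and 4.99e-04). Dnmt3b, its relative, had 2.24 and 2.08 FPKM for B16-F1, 2.96 and 2.72 FPKM for B16-F1R2 and 2.05 and 2.51 FPKM for B16-F1R2L and did not pass (log2 fold changes 0.38 and 0.07, adjusted p = 0.0536 and 0.676). Zfp445, a zinc finger gene that also protects imprints, lay between 12.1 and 15.5 FPKM and was called higher in B16-F1R2L (log2 fold change 0.23, adjusted p = 0.0422) but not in B16-F1R2 (0.05, adjusted p = 0.623).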

How the data were processed

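Polyadenylated RNA of 6 untreated libraries was sequenced by the authors with a strand-specific kit (single-end, 50 bases) and mapped to NCBI37/mm9 by TopHat 2.0.10 with Bowtie 1.0.0. The authors deposited 1 table of FPKM values per gene and library, with replicates kept apart. The submitters' processing notes name Cuffnorm, without a role, beside FastQC 0.10.1, SAMtools 0.1.1.9 and DESeq2. The gene annotation and the use of strand in counting are not given in the sources used here. FPKM are not counts, so no count test was run and no intervals that need counts were computed. Precision is limited by the estimated depth of 11900000 to 14700000 reads.

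The 3 comparisons used limma 3.58.1 (R 4.3.3) on log2(FPKM + 0.1), over the 11379 genes that reached 1 FPKM in 2 or more libraries, with all 6 libraries sharing 1 estimate of the spread, eBayes with a trend, Benjamini-Hochberg adjustment over all tested genes and a threshold of 0.05. The main fit had no replicate block, since the sources describe no pairing. An exact permutation test of 2 against 2 libraries cannot go below p = 0.333 and was not used. The fit was tested on simulated data. Alternatives were the pseudocount, the filter, 2 scalings, only the libraries compared, a replicate block and each library left out in turn.

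Groups and replicate numbers came from the sample labels. The members and the other gene lists were chosen with earlier results of these data known, and expressed alleles, clusters and gene roles are textbook knowledge. Every member was accounted for, with values per library for those called in a comparison. In the other lists, called genes whose log2 fold change was 1 or more in size could be named. Outside this rule, Zfp57, Zfp445, Trim28, Dnmt1, Uhrf1, Dnmt3a, Dnmt3b, Tet2, Tet3, Atp10a and Snurf were named after their values were seen. Positions came from NCBIM37 with the GENCODE annotation of that build by symbol (37 of 38 matched, Kcnq1ot1 did not), and shared sequence was the share of 50-base stretches of a gene's transcripts found in those of other genes. Promoters were RefSeq windows in GRCm38.p6, and no coordinates were converted between builds. Depth was estimated from the FPKM of 1 read in 6914 genes with 1 transcript. Figures were drawn with matplotlib 3.10.9.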

Additional observations from a re-analysis of the deposited data

How the results depend on the processing

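Counts of called imprinted genes are given as higher and lower. With all 23951 genes tested and no filter, they were 3 and 3 in B16-F1R2 against B16-F1 (6 and 5 as reported), 2 and 2 in B16-F1R2L against B16-F1 (6 and 4) and 0 and 0 in B16-F1R2L against B16-F1R2 (2 and 3). In the last comparison quantile normalization left 1 higher, and the fit to its 4 libraries left 0 higher. Over all genes that fit called 874 higher and 644 lower and the unfiltered one 381 and 253, against 1378 and 1190. Leaving out 1 library gave 4 to 6 higher and 3 to 5 lower in the first comparison, 2 to 5 and 3 to 4 in the second (2 higher without B16-F1 replicate 1, 3 without B16-F1 replicate 2) and 0 to 1 and 0 to 3 in the third (0 lower without B16-F1R2L replicate 2, 1 without B16-F1R2 replicate 1). A lone sample was then assumed to vary like the other groups.

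Rescaling each library to a sum of 1000000 moved the median of all genes to 0.118 in B16-F1R2L against B16-F1 and to 0.129 against B16-F1R2, and the share of calls that were higher from 52.1% to 66.6% and from 53.7% to 81%. The counts of imprinted genes became 8 and 3, and 3 and 2, and Gnas fell by 0.20 against B16-F1.

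Reversals touched only differences that had not passed. In B16-F1R2 against B16-F1 they were Airn (-0.083, quantile) and Plagl1 (-0.022 to 0.167 over the fits without 1 library). In B16-F1R2L against B16-F1 they were Copg2 (0.042 rescaled, 0.007 quantile), Sgce (0.043 rescaled, 0.003 quantile) and Phlda2 (-0.262, quantile). Between the variants, the fits without 1 library ranged from -0.088 to 0.059 for Igf2r, -0.17 to 0.066 for Impact, -0.157 to 0.203 for Cdkn1c, -0.073 to 0.102 for Ube3a and -0.034 to 0.063 for Gnas. Rescaling gave 0.094 for Igf2r and 0.056 for Impact, and quantile normalization gave -0.191 for Cdkn1c and -0.043 for Ube3a. The cause was not tested. Of all values recomputed, 574 kept direction and side of the threshold, 77 passed no longer, 9 passed newly and 19 reversed.

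Replicate differences of equally numbered libraries correlated at 0.0519, -0.102 and 0.0789 in the 3 comparisons. Such weak correlations over all genes do not tell whether equally numbered libraries shared a batch, and the sources describe no pairing. With a replicate block the counts were 5 and 5, 6 and 4, and 2 and 3, and Ube3a in B16-F1R2 passed no longer (adjusted p = 0.059). A crossed pairing of B16-F1R2L and B16-F1, chosen after seeing the data, gave 6 and 4, and 3191 and 2959 over all genes.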

Other observations

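The growth factor Igf2 was near 0 in all 6 libraries, and the other genes of insulin-like growth factor signalling were set beside it. Of the 14 such genes listed, 9 were tested and 2 were at 0 in all libraries. Of the 9, 3 (Igf2bp3, Igfbp6 and Igfbp7) were under 1 FPKM in both B16-F1 libraries, so they entered the test through the variants, are left out of the counts and are given by their levels as a description. In B16-F1R2, 3 of the 6 others were higher and 1 was lower than in B16-F1 (66.7%, median log2 fold change 0.44), against 55.4% of all tested genes. In B16-F1R2L, 2 were higher and 1 lower (50%, median 0.20, against 56.7%), and between the variants 1 was lower (16.7%, against 22.6%). Igf2bp3, whose product binds Igf2 RNA among others, had 0.925 and 0.894 FPKM for B16-F1, 12.8 and 12.9 FPKM for B16-F1R2 and 12.3 and 12.7 FPKM for B16-F1R2L. B16-F1 and the variants did not overlap. Igf1r, the receptor through which IGF1 and IGF2 signal, rose from 1.19 and 1.11 FPKM (B16-F1) to 2.51 and 3.03 (B16-F1R2) and 3.44 and 3.64 (B16-F1R2L) (log2 fold changes 1.20 and 1.54, limma, adjusted p = 5.3e-04 and 1.81e-04).

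Of the binding proteins for these factors, Igfbp4, the most abundant of those named, fell from 132 and 135 FPKM (B16-F1) to 67.5 and 62.9 (B16-F1R2) and 70.6 and 64.7 (B16-F1R2L) (log2 fold changes -1.03 and -0.98, adjusted p = 3.34e-05 and 3.91e-05). Igfbp6 had 0.566 and 0.589 FPKM for B16-F1, 1.36 and 1.5 FPKM for B16-F1R2 and 2.46 and 1.80 FPKM for B16-F1R2L. Igfbp7 had 0.216 and 0 FPKM for B16-F1, 1.51 and 1.70 FPKM for B16-F1R2 and 0.813 and 0.767 FPKM for B16-F1R2L. Both variants were compared with the same B16-F1 libraries.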
